A study of Mus musculus with 34 samples.

Results

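Potassium channels let potassium ions leave the cell along their gradient and so set its resting voltage; the tandem-pore (Kcnk) and inward-rectifier (Kcnj) families hold that voltage, and the voltage-gated (Kcna to Kcnh, Kcnq), calcium-activated (Kcnma, Kcnn) and sodium-activated (Kcnt) families open on demand. Neurons use many of them to shape firing. Microglia, the resident macrophages of the brain, are known to rely on few: Kcnk13 (the THIK-1 channel), which sets their resting voltage and opens when extracellular ATP acts on the receptor P2ry12, and further channels described in microglia or macrophages, among them Kcnk6, Kcna3, Kcnn4 and Kcnj2. Potassium leaving the cell is a known trigger of the Nlrp3 inflammasome, which releases interleukin 1 beta.

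The potassium channel genes were taken by symbol, as protein-coding RefSeq genes whose name starts with Kcn, goes on with the letters of a channel family and ends with a number. There were 86 of them among 21631 protein-coding genes on the 19 autosomes and the X chromosome, in 18 families, with 15 Kcnj and 14 Kcnk genes as the largest. Chromatin was profiled by ULI-NChIP-seq, native chromatin immunoprecipitation from few cells, in hippocampal microglia of FGR mice and of Ctrl mice (control). The labels do not spell out FGR or say how it was brought about. Mice of both groups were Tmem119-tdTomato+/-, with a fluorescent reporter at a microglial gene, and were 3 weeks old counted from birth, except that the labels of replicate 4 give no age. Each group had 4 libraries for each of H3K4me3, which marks promoters, for the acetylation marks H3K9ac and H3K27ac, found at promoters and enhancers in use, and for H3K9me3, which marks silent chromatin. For 1 input library per group no list was used. The labels do not say whether libraries came from separate animals, so p-values measure the spread between these libraries only.

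The deposited values are lists of peaks per library, without read counts, so the depth behind them is unknown. Coverage is given as kb of called peaks within 2.5 kb of the gene ends, and for H3K9me3 as the share of the gene body that peaks take up, in percent. A ± after a mean is the SD over 4 libraries (3 for H3K9me3) and after a difference its standard error; adjusted p-values are from limma over all genes tested. A higher coverage can mean wider or more peaks, and with bulk libraries fewer cells carrying a mark and less of it per cell cannot be told apart. Of the 86 genes, 23 had a window shared with a neighbouring gene, so a peak there may belong to that gene. No peak touched the ends of 16 genes in any library of the 3 active marks, among them Kcna1, Kcna2, Kcnd2, Kcnj3, Kcnj6 and Kcnv1, which neurons are known to use. Peaks could still lie further inside such genes. Inside Kcna2 an H3K4me3 region, chr3:107098381-107099073, was called in every FGR and no Ctrl library. A RefSeq start of Kcna2 also lies inside the gene, with H3K9ac peaks near it in 2 FGR libraries. Inside Kcnd2 an H3K9ac region, chr6:21394008-21394872, was called in every FGR and no Ctrl library. At least 1 active mark could be tested at 55 genes and all 3 at 14 genes, a gene being tested where 2 or more libraries of the mark had a peak.

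The lists of the groups differed in ways that bear on each result below. H3K4me3 lists held 43175 to 49045 peaks in FGR and 16598 to 18391 in Ctrl, H3K9ac lists 54853 to 87128 and 42220 to 47729, and H3K27ac lists 53492 to 78143 and 45988 to 50116. H3K9ac peaks had median widths of 407 to 459 bp in FGR and 634 to 696 bp in Ctrl. Those of H3K27ac were 314 to 365 bp in FGR and 825 to 919 bp in Ctrl. Across the 21631 genes, coverage in FGR H3K4me3 libraries correlated at a mean r of 0.908 with Ctrl H3K9ac libraries and at 0.822 with Ctrl H3K4me3 libraries; across the 86 channel genes the order was the other way, at 0.799 and 0.837. FGR H3K9ac libraries correlated at 0.757 with Ctrl H3K9ac libraries and at 0.65 with Ctrl H3K4me3 libraries across all genes. With Ctrl H3K9ac libraries FGR H3K27ac libraries correlated at 0.896, so H3K9ac was the FGR active mark least like Ctrl H3K9ac. Across the 86 channel genes FGR H3K9ac and FGR H3K27ac libraries correlated with Ctrl H3K9ac libraries at 0.63 and 0.821. Whether the labels of the marks mean the same in both groups was not tested. Every H3K4me3 gain and H3K9ac loss below rests on the deposited labels, by which the libraries are called throughout. Peaks over all 8 microglial marker genes were present in every FGR and every Ctrl library of the active marks. Summed coverage of these 8 genes was 37.5 to 42.7 kb in FGR and 17.4 to 20.5 kb in Ctrl for H3K4me3, 24.3 to 26.4 kb and 41.8 to 44.7 kb for H3K9ac, and 38.8 to 45.9 kb and 71.0 to 71.4 kb for H3K27ac.

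The 5 microglial channel genes all carried active marks, and their H3K9ac moved in different directions in FGR. At the gene ends H3K9ac fell at Kcnk6 and Kcnj2, rose at Kcnn4, and passed no test at Kcna3 and Kcnk13; H3K27ac fell at Kcnk6, Kcna3 and Kcnj2. Over the whole gene, H3K9ac at Kcnk13 fell to 5.06 ± 0.715 kb in FGR, against 14.2 ± 0.893 kb in Ctrl (SD, n = 4 each). The stretches upstream of a RefSeq start of Kcnj2 and of Kcnk13 are shown because H3K9ac peaks lie on or beside them. The 300 bp promoter window of Kcnj2, which adds 50 bases downstream, was covered over 300 bp in every FGR library and 138 to 300 bp in Ctrl. That of Kcnk13 was covered over 91 to 124 bp in FGR and 2 to 300 bp in Ctrl, by a block that lies mostly downstream, so that in Ctrl replicates 1 and 2, at 37 and 2 bp, the overlap may lie outside the letters shown. Capitals mark GAGGAA or its reverse complement TTCCTC, the core of sites bound by PU.1, the factor that directs macrophage genes. Both sequences are from RefSeq, build GRCm38.p6 (mm10).
Kcnj2, chr11:111065914-111066163, plus strand: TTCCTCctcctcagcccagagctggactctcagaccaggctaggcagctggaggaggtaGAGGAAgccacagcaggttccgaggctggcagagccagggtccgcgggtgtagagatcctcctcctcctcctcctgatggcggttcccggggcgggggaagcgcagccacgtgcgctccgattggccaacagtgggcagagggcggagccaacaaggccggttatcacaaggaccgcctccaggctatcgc
Kcnk13, chr12:99964249-99964498, plus strand: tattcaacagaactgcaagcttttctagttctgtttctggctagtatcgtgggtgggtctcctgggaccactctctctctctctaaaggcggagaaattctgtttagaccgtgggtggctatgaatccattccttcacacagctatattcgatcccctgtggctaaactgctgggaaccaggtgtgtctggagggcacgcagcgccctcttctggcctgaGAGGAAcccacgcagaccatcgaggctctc

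Kcnk6 encodes TWIK-2, a tandem-pore channel known to carry potassium out of macrophages before Nlrp3 is activated. It lies at chr7:29221928-29232522 and shares no window with a neighbour. H3K9ac at its ends covered 1.55, 2.4, 2.08 and 1.47 kb in the 4 FGR libraries, against 2.55, 2.97, 3.29 and 2.91 kb in the 4 Ctrl libraries. All FGR values lay under all Ctrl values, and the difference of -1.05 ± 0.235 kb (SE) had an adjusted p of 0.00467. H3K27ac covered 3.49, 2.81, 3.95 and 2.81 kb in FGR, against 5.69, 5.73, 4.89 and 5.28 kb in Ctrl, a difference of -2.13 ± 0.281 kb (adjusted p = 0.000108) with no overlap. H3K4me3 went the other way, with 3.47, 3.98, 3.74 and 3.66 kb in FGR, against 1.80, 1.51, 1.47 and 1.13 kb in Ctrl, and a difference of 2.23 ± 0.156 kb (adjusted p = 3.11e-06). Per length Kcnk6 was the most covered channel gene for H3K27ac in both groups: peaks took 44.9 ± 6.41% of the gene with its 2.5 kb flanks in FGR, against 69.4 ± 3.56% in Ctrl (SD, n = 4 each), which ranked 1 of 86 in both.

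Kcnj2 encodes Kir2.1, an inward rectifier that holds the resting voltage in many cell types. Its H3K9ac covered 1.71, 1.39, 1.3 and 1.61 kb in FGR, against 2.92, 2.55, 2.84 and 2.86 kb in Ctrl. This loss of 1.29 kb (FGR minus Ctrl -1.29 ± 0.129 kb SE, adjusted p = 7.11e-05) was the largest H3K9ac loss at the ends of any channel gene tested. For H3K27ac the values were 1.28, 0.83, 1.61 and 1.08 kb in FGR and 2.64, 1.62, 2.56 and 1.68 kb in Ctrl, a difference of -0.92 ± 0.266 kb (adjusted p = 0.00922); the highest FGR library and the lowest Ctrl library nearly met. H3K4me3 rose to 3.24 ± 0.0975 kb in FGR, against 2.19 ± 0.304 kb in Ctrl (adjusted p = 0.000135).

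Kcnn4 encodes KCa3.1, a calcium-activated channel of immune cells. Its H3K9ac went the other way: at its ends it covered 2.92, 3.81, 2.42 and 2.38 kb in FGR, against 1.55, 1.10, 1.59 and 1.06 kb in Ctrl. The groups did not overlap, and the gain was 1.56 ± 0.309 kb (adjusted p = 0.0025). Its H3K4me3, at 0.41, 0.15, 0.31 and 0.00 kb in FGR and 0 in every Ctrl library, missed the threshold (adjusted p = 0.0509), as did H3K27ac, at 1.2 ± 0.199 kb in FGR and 1.37 ± 0.213 kb in Ctrl (adjusted p = 0.278). In all 3 H3K9ac alternatives with other scaling or list length the signs of Kcnk6, Kcnj2 and Kcnn4 and their calls held: after quantile normalization the differences were -0.92, -1.15 and 1.62 kb, with lists of equal length -1.26, -1.36 and 0.65 kb, and at the stricter threshold -1.12, -1.29 and 1.44 kb.

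Kcna3 encodes Kv1.3, a voltage-gated channel of lymphocytes and of activated microglia, in a gene of 2 kb. H3K27ac covered 0.16, 0.85, 0.00 and 0.27 kb in FGR, against 2.19, 0.97, 1.06 and 1.87 kb in Ctrl, and fell by 1.2 kb (adjusted p = 0.00359). H3K9ac was 1.78 ± 0.291 kb in FGR and 1.97 ± 0.275 kb in Ctrl and overlapped between groups (adjusted p = 0.371). H3K4me3 was 3.28 to 3.46 kb in FGR and 1.67 to 1.99 kb in Ctrl, a gain of 1.53 ± 0.0877 kb (adjusted p = 1.3e-06). The H3K4me3 gains at the ends turned sign after quantile normalization at Kcna3 (-0.204 kb), Kcnj2 (-0.771 kb) and Kcnk13 (-0.606 kb), and at Kcnk6 the gain stayed past the threshold. With lists of equal length the gains stayed past the threshold at Kcna3 (1.775 kb), Kcnj2 (0.784 kb), Kcnk13 (0.34 kb) and Kcnk6 (1.694 kb). The H3K27ac losses at the ends were smaller and no longer passed the test after quantile normalization at Kcnk6 (-0.211 kb, adjusted p = 0.6), Kcna3 (-0.645 kb, adjusted p = 0.12) and Kcnj2 (-0.0267 kb, adjusted p = 0.951). With lists of equal length they passed it, at -2.305 kb for Kcnk6, -1.476 kb for Kcna3 and -0.8335 kb for Kcnj2.

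**Figure D1:**
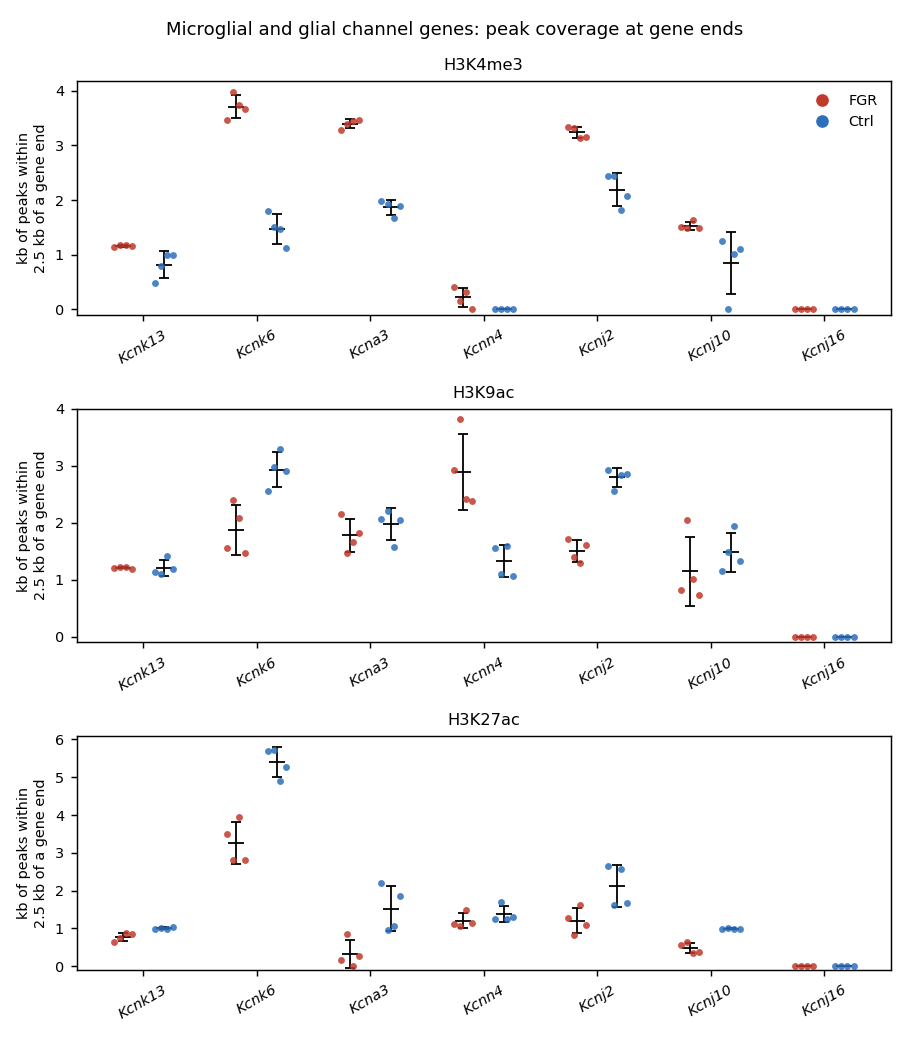
Coverage by H3K4me3, H3K9ac and H3K27ac peaks (kb within 2.5 kb of the gene ends) at the 5 microglial and 2 glial channel genes, with FGR left of Ctrl for each gene; points are libraries, bars the mean and SD of 4. In the H3K9ac panel the FGR libraries lie under the Ctrl libraries at Kcnk6 and Kcnj2, and above them at Kcnn4; the Kcnk13 values, with means of 1.21 kb in both groups, count only the part of a longer peak block that lies within the window.

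Gene ends miss much of what marks Kcnk13, which spans 99.5 kb at chr12:99963149-100062682 and has peaks along much of its length. At its ends H3K9ac was 1.21 ± 0.0141 kb in FGR and 1.21 ± 0.137 kb in Ctrl, a difference of 0.00325 ± 0.0949 kb (adjusted p = 0.978). The peak block near the start runs on past the edge of the 2.5 kb window, so this measure cuts it off and does not show that its extent is alike. Coverage was therefore also summed over each whole gene and its 2.5 kb flanks and fitted over all genes, a measure added after these values were seen. Over the whole gene, H3K9ac covered 5.53, 5.78, 4.67 and 4.26 kb in FGR, against 13.85, 14.17, 15.46 and 13.37 kb in Ctrl. The lowest Ctrl library held more than any FGR library by a wide margin, and the difference was -9.15 ± 0.511 kb (adjusted p = 9.22e-06). With quantile normalization it was -7.66 kb (adjusted p = 5.2e-07).

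H3K27ac over Kcnk13 covered 15.14, 18.31, 16.14 and 13.90 kb in FGR, against 26.32, 25.00, 27.85 and 28.10 kb in Ctrl, a difference of -10.9 ± 1.03 kb (adjusted p = 4.8e-05). No other channel gene held as many kb of H3K27ac in either group. After quantile normalization the sign of this H3K27ac difference turned, to 2.56 kb (adjusted p = 0.0777), while that of the H3K9ac difference held. No other way of bringing the lists to one scale was run over whole genes. At the ends, with lists of equal length, the H3K27ac difference stayed negative, at -0.308 kb (adjusted p = 0.0356). H3K4me3 over the gene was 6.17 ± 0.864 kb in FGR and 2.75 ± 0.242 kb in Ctrl (adjusted p = 5.09e-05), and quantile normalization turned that sign too, to -1.81 kb (adjusted p = 0.0221).

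Along Kcnk13 the groups shared a block near the start and parted further in. In bins of 200 bp, 3.4 kb of H3K9ac were called in every FGR library and 11.0 kb in every Ctrl library, of which 2.8 kb were common to all. For H3K27ac 8.8 kb were called in every FGR library, 20.2 kb in every Ctrl library and 8.2 kb in all 8. For H3K4me3 the stretch chr12:99974094-99975460 was called in every FGR and in no Ctrl library. Nearly the same stretch, chr12:99974046-99975855, was the longest H3K9ac region of the gene called in no FGR and in every Ctrl library.

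**Figure D2:**
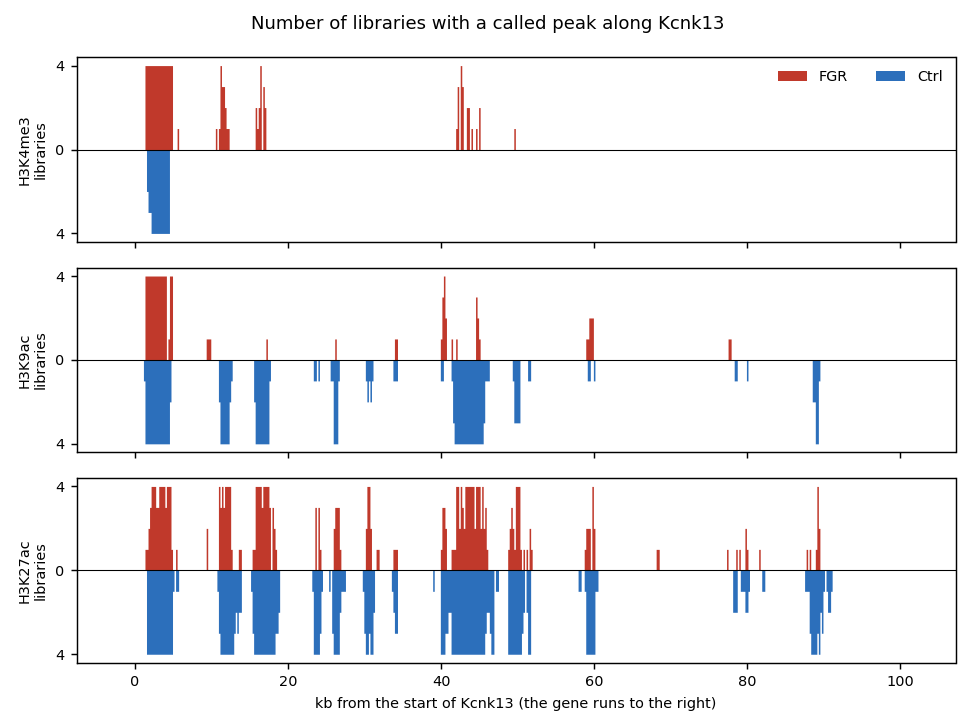
Number of libraries with a called peak in each 200 bp bin along Kcnk13, in kb from the gene's start, with FGR drawn upward and Ctrl downward, 4 libraries each. H3K9ac in every library covers 3.4 kb in FGR and 11.0 kb in Ctrl, and the blocks beyond the start are mostly below the line.

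Kcnma1, which encodes the large-conductance BK channel, also differed between its ends and its body. At the ends H3K9ac covered 1.83, 2.13, 1.5 and 1.72 kb in FGR, against 1.22, 1, 0.34 and 1.17 kb in Ctrl, a gain of 0.86 ± 0.214 kb (adjusted p = 0.00778). Over the 712.8 kb gene it covered 5.71, 6, 3.40 and 3.65 kb in FGR, against 9.49, 9.02, 7.43 and 8.51 kb in Ctrl, a loss (FGR minus Ctrl -3.92 ± 0.716 kb, adjusted p = 0.00236; -3.37 kb after quantile normalization). Its longest H3K9ac region called in every Ctrl library and in no FGR library was 2146 bp long, at chr14:23838752-23840897. H3K27ac over the gene was 7.71 ± 0.777 kb in FGR and 13.8 ± 0.675 kb in Ctrl (adjusted p = 1.7e-05), with a sign that turned after quantile normalization (0.279 kb, adjusted p = 0.586).

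Over whole genes the 5 microglial genes all lost H3K27ac and 3 of them lost H3K9ac, namely Kcnk13, Kcnk6 and Kcnj2. Kcnk6 lost 1.39 kb of H3K9ac (adjusted p = 0.0274) with 1 FGR library, at 6.40 kb, inside the Ctrl range of 6.19 to 6.75 kb; leaving out any of 6 of the 8 libraries ended the call, with adjusted p up to 0.0693. The H3K27ac loss over Kcnj2 (-1.33 kb, adjusted p = 0.0361) likewise lost its call without FGR replicate 1, 2 or 4 or Ctrl replicate 1 or 3 (adjusted p = 0.0687 to 0.0883). Kcnn4 gained H3K9ac over its body too, with 7.53 ± 1.61 kb in FGR and 2.91 ± 0.466 kb in Ctrl (adjusted p = 0.00131). Of the 67 channel genes tested over the body for H3K9ac, 40 gained and 5 lost coverage, beside 30.8% and 29.7% of all 16715 genes tested; the 5 were Kcnk13, Kcnk6, Kcnj2, Kcnma1 and the glial Kcnj16. For H3K27ac none of 28 gained and 17 lost coverage (0.153% and 80.3% of all genes), and for H3K4me3 47 of 49 gained and none lost (96.1% and 0.0199% of all genes). In these counts a gene without a Ctrl peak over its body could only gain H3K9ac or H3K4me3. How many of the channel genes tested over the body were of this kind was not counted. After quantile normalization 3 gained and 3 lost H3K27ac, and 12 gained and 5 lost H3K4me3; the H3K27ac sign turned at Kcnk13, Kcnk6 and Kcnn4.

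**Figure D3:**
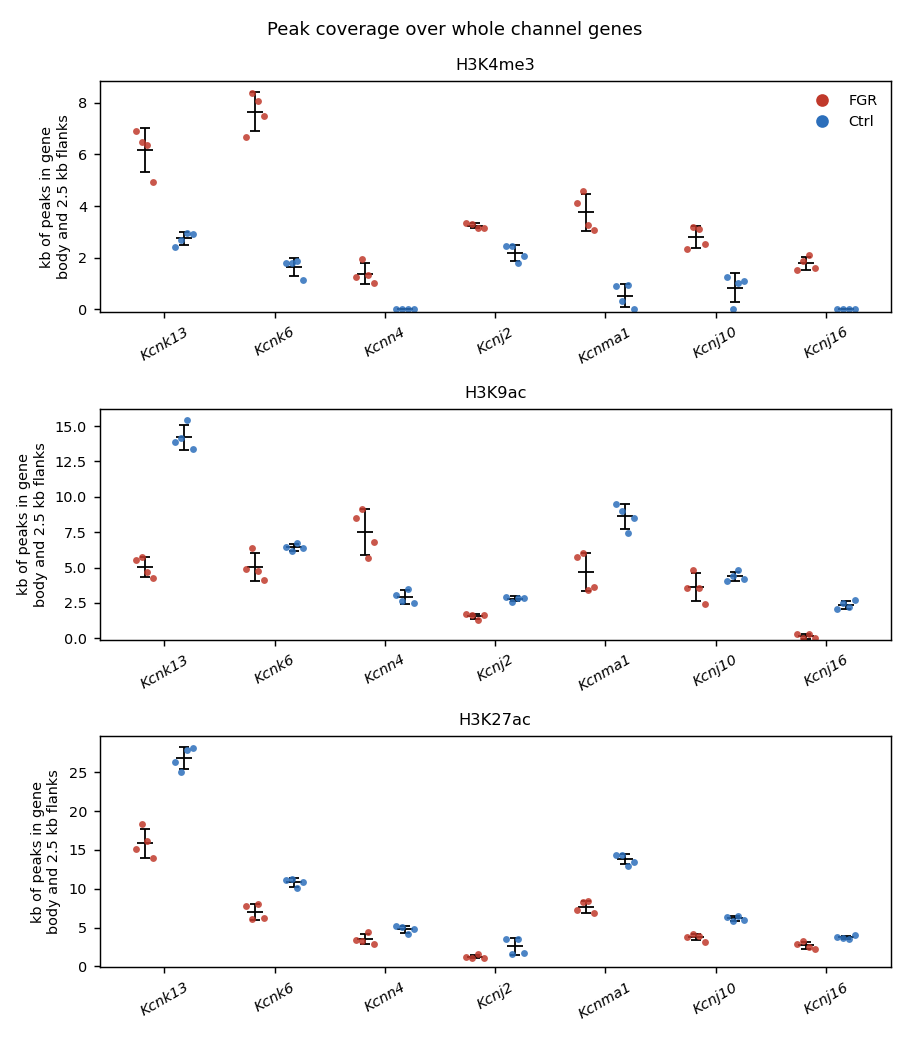
Coverage over whole genes and 2.5 kb flanks (kb) at 7 channel genes for the 3 active marks, with FGR left of Ctrl; points are libraries, bars the mean and SD of 4. For H3K9ac, Kcnk13 is at 5.06 kb in FGR and 14.2 kb in Ctrl, Kcnn4 is higher in FGR, and Kcnj16 is near 0 in FGR.

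The glial genes encode Kir4.1 (Kcnj10) and its partner subunit Kir5.1 (Kcnj16), through which astrocytes and oligodendrocytes take up potassium. At the ends of Kcnj16 no library had an active peak. Inside the gene the marks differed at its second RefSeq promoter window of 300 bp. That window was wholly under H3K27ac peaks in all 8 libraries, wholly under H3K4me3 peaks in the 4 FGR libraries and free of them in Ctrl, and free of H3K9ac peaks in FGR but wholly covered in the 4 Ctrl libraries. The other 3 RefSeq windows of Kcnj16 had no active peak. The upstream part of the silent first window and of the marked second window are shown to set them side by side; neither holds GAGGAA or TTCCTC, so both are in lower case.
Kcnj16 window 1, chr11:110967783-110968032, plus strand: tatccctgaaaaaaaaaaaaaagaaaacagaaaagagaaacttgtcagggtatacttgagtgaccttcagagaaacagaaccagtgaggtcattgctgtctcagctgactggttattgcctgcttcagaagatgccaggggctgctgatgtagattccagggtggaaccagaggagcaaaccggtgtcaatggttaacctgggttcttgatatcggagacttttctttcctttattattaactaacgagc
Kcnj16 window 2, chr11:110997237-110997486, plus strand: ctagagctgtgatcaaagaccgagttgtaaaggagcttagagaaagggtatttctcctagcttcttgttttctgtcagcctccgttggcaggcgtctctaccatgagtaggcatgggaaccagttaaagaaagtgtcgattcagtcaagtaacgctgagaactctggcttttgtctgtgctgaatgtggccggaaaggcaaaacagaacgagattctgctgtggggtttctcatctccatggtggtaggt

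Over the whole of Kcnj16, H3K9ac covered 0.31, 0.00, 0.28 and 0.00 kb in FGR, against 2.07, 2.51, 2.19 and 2.67 kb in Ctrl, a difference of -2.21 ± 0.169 kb (adjusted p = 3.75e-05; -2.27 kb after quantile normalization). H3K4me3 covered 1.53, 1.88, 2.10 and 1.62 kb in FGR and 0 kb in every Ctrl library (adjusted p = 3.87e-06; 0.875 kb after quantile normalization). FGR H3K4me3 and Ctrl H3K9ac peaks lay on the same stretch there: chr11:110997034-110997944 was called for H3K4me3 in every FGR and no Ctrl library, and chr11:110996815-110998064 for H3K9ac in no FGR and every Ctrl library. Such pairs of regions were also found at Kcnk13, Kcnh7, Kcnq3 and Kcnc2, and the likeness of these libraries across all genes, given above, bears on them. H3K27ac was 2.72 ± 0.441 kb in FGR and 3.77 ± 0.201 kb in Ctrl (adjusted p = 0.00318), and its sign turned after quantile normalization (0.791 kb, adjusted p = 0.0193). Kcnj10, which shares a window with Pigm, lost H3K27ac at its ends, at 0.55, 0.64, 0.36 and 0.37 kb in FGR, against 0.98, 1, 0.99 and 0.98 kb in Ctrl (adjusted p = 0.0012). Its H3K9ac was 1.15 ± 0.606 kb in FGR and 1.48 ± 0.337 kb in Ctrl (adjusted p = 0.348). H3K4me3 there was 1.48 to 1.64 kb in FGR and 0.00 to 1.25 kb in Ctrl, a call (adjusted p = 0.0245) that was lost without any of FGR replicates 1, 2 or 3 (adjusted p up to 0.0597).

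Away from the microglial genes, H3K9ac at gene ends was called in FGR at channel genes that had none in Ctrl. Of 54 channel genes tested, 31 gained and 2 lost H3K9ac, beside 28.5% gaining and 30% losing among all 15605 genes tested. The median difference was 0.65 kb over the 54 and 0.03 kb over all genes tested. Of the 54, 27 were at 0 kb in every Ctrl library, entered the test through FGR peaks alone and so could only gain. Of the 31 gains, 17 were at such genes. The share of such genes among all genes tested was not counted. After quantile normalization 22 gained and 4 lost (23% and 31.6% of all genes), and with lists of equal length 23 of 42 gained and 3 lost (22.3% and 37.4%). Leaving out the genes with a shared window left 35 tested, of which 20 gained and 2 lost.

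Large H3K9ac gains outside the lists of microglial and glial genes were found at Kcnh3, Kcnn1, Kcnk4, Kcng2 and Kcnh2. Kcnh3, a voltage-gated channel of forebrain neurons, had 2.10, 4.11, 2.67 and 1.86 kb in FGR, against 0.62, 0.94, 0.35 and 0.53 kb in Ctrl (difference 2.08 ± 0.437 kb, adjusted p = 0.00339); its window also holds an end of Mcrs1. Kcnh2, the ERG channel that repolarises the heart, had 1.63, 2.55, 1.24 and 1.15 kb in FGR and 0 kb in every Ctrl library (adjusted p = 0.00108). It shares no window with a neighbour. Kcnn1, a small-conductance calcium-activated channel, had 3.34 ± 0.203 kb in FGR and 1.43 ± 0.303 kb in Ctrl (adjusted p = 3.83e-05), in windows shared with Arrdc2 and Ccdc124. Kcnk4, the mechanically gated TRAAK channel, had 2.07 ± 0.472 kb in FGR and 0.291 ± 0.386 kb in Ctrl (adjusted p = 0.000558), in windows shared with Catsperz, Esrra and Gpr137. Kcng2, a subunit that modifies other channels, had 1.66 ± 0.240 kb in FGR and 0 kb in every Ctrl library (adjusted p = 1.76e-05), in a window shared with Slc66a2.

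Of the 25 neuronal channel genes listed, 14 could be tested for H3K9ac, and 7 gained and none lost coverage, among them Kcnh3 and Kcnn1 above, Kcnk9, Kcnt1, Kcnj4 and Kcnj9. At 19 of the 25 no Ctrl library had an H3K9ac peak, so those tested among them could only gain. Kcnk9, the TASK-3 background channel, had 1.11, 1.42, 1.80 and 0.96 kb in FGR and 0 kb in every Ctrl library, a difference of 1.32 ± 0.172 kb (adjusted p = 0.00028). Kcnt1, a sodium-activated channel, had 0.96, 1.58, 1.34 and 1.04 kb in FGR and again 0 kb in every Ctrl library (adjusted p = 0.000142). The median difference over the 14 was 0.68 kb, against -0.19 kb over the 5 microglial genes, of which 1 gained and 2 lost. Of 8 genes known best from tissues outside the brain, 4 were tested and 2 gained: the cardiac and epithelial Kcnq1 (1.41 ± 0.602 kb in FGR, 0 kb in Ctrl, adjusted p = 0.00177) and Kcnk5 (0.85 ± 0.577 kb in FGR, 0.0922 ± 0.184 kb in Ctrl, adjusted p = 0.0338), whose groups overlapped. Of the 46 genes in no list, 30 were tested, 21 gained and none lost, with 33 of the 46 at 0 kb in every Ctrl library.

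These gains came with H3K9ac at markers of other cell types. Summed H3K9ac coverage of the 8 neuronal markers was 4.44 to 7.18 kb in FGR and 0.325 to 0.709 kb in Ctrl, with Snap25 and Gad1 at 0 in every library. The 6 oligodendrocyte markers summed to 3.13 to 5.52 kb in FGR and 1.53 to 2.5 kb in Ctrl, and the 5 endothelial and mural markers to 3.24 to 6.66 kb and 1.68 to 2.13 kb. The endothelial and mural list includes Kcnj8, itself a channel gene with an H3K9ac gain. The 5 astrocyte markers overlapped, at 3.02 to 6.09 kb in FGR and 3.82 to 5.75 kb in Ctrl. For H3K27ac the neuronal markers summed to 0 to 0.364 kb in FGR and 0 kb in Ctrl, with 7 of the 8 at 0 in every library. The part of these cell types in the H3K9ac gains was not tested.

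**Figure D4:**
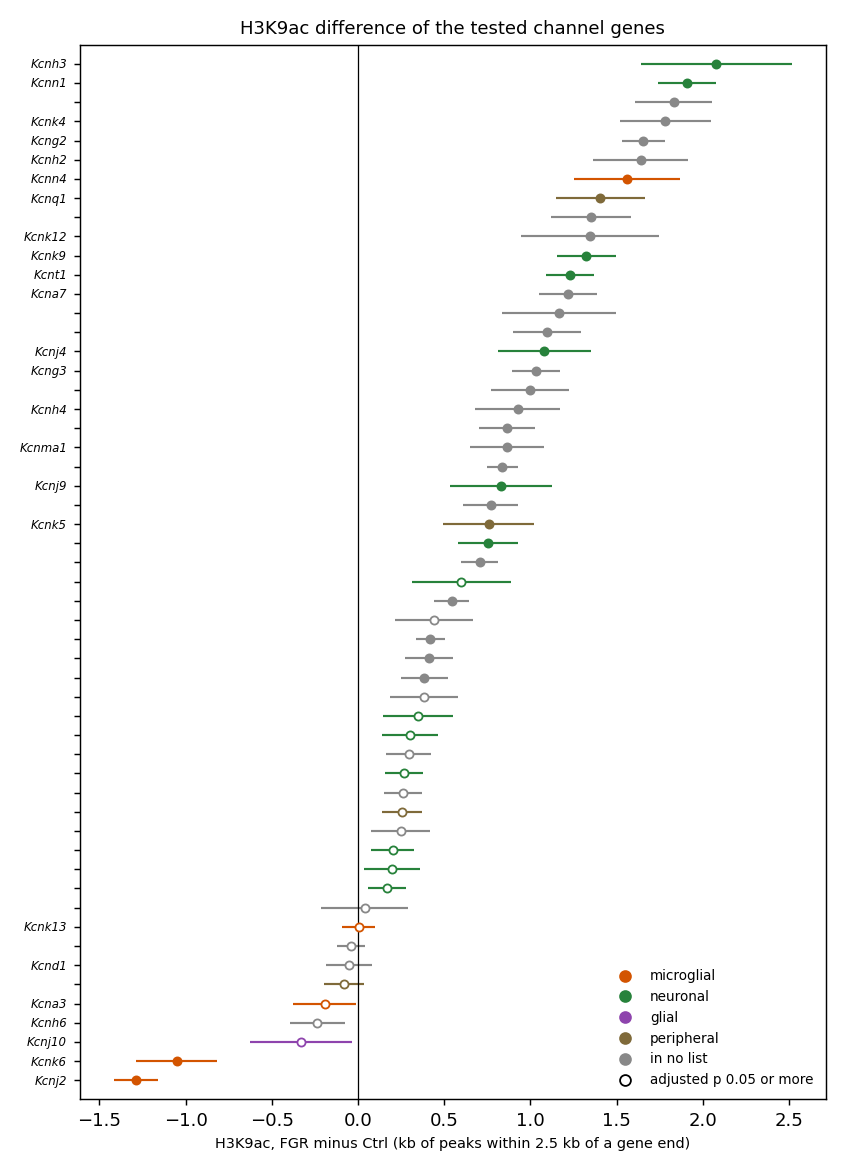
H3K9ac difference, FGR minus Ctrl, in kb within 2.5 kb of the gene ends, for the 54 channel genes tested, ordered by size, with the names of genes described in the text; bars are standard errors and open points did not pass an adjusted p of 0.05. Kcnk6 and Kcnj2, at -1.05 and -1.29 kb, are the filled points below 0, and Kcnn4, at 1.56 kb, lies among the gains.

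H3K4me3 rose at nearly every channel gene that carried it, as it did across the genome. Of 42 channel genes tested, 38 gained and none lost, beside 95.5% gaining and 0% losing among all 14043 genes tested, and the median difference was 0.79 kb over the 42 and 0.89 kb over all genes. Of the 42, 11 were at 0 kb in every Ctrl library, entered the test through FGR peaks alone and could only gain. Such genes made up 9 of the 38 gains, and their share among all genes tested was not counted. Channel genes with an H3K4me3 peak numbered 41 to 44 per FGR library and 22 to 26 per Ctrl library. Kcnn4, Kcnj15, Kcnk5 and Kcne3 passed no test. After quantile normalization, which gives every library the same distribution of values, 5 gained and 12 lost (15.8% and 24.2% of all genes). A rise shared by all genes is taken out by that step. It also gave genes without a Ctrl peak a Ctrl value of 0.326 kb. Kcnn4, Kcnj15 and Kcnh7, counted among the 12, had no Ctrl peak at their ends, so these are not losses of a called peak. With lists of equal length 13 of 28 gained and 4 lost (89.3% and 1.37%). The median difference was then 0.27 kb over the 28 and 0.84 kb over all genes. The 5 that gained after quantile normalization, chosen after their values were seen, were Kcnd1, Kcng3, Kcnk6, Kcna7 and Kcnh2. With lists of equal length the sign turned at Kcng3 (-0.213 kb, adjusted p = 0.128) and at Kcna7 (-0.251 kb, adjusted p = 0.0455).

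Kcnk12, which encodes THIK-2, the closest relative of the Kcnk13 channel, had the largest H3K4me3 gain at the ends: 4.07, 3.82, 4.16 and 4.16 kb in FGR, against 2.07, 1.3, 2.07 and 1.45 kb in Ctrl (difference 2.33 ± 0.191 kb, adjusted p = 7.08e-06). Kcnd1, a voltage-gated channel of the A type, had 2.36, 2.42, 2.38 and 2.2 kb in FGR, against 0.00, 0.00, 0.00 and 0.43 kb in Ctrl (2.23 ± 0.113 kb, adjusted p = 7.76e-07), in windows shared with Gripap1 and Otud5. Kcng3, a subunit that joins Kv2 channels and forms none alone, had 1.5, 2.43, 2.15 and 1.42 kb in FGR, against 0.00, 0.38, 0.48 and 0.00 kb in Ctrl (adjusted p = 0.000155). In the Kcng3 promoter window, 300 bp long, H3K4me3 peaks covered every base in the 4 FGR libraries and none in Ctrl, and H3K9ac peaks covered it in 3 FGR libraries and none in Ctrl. Its upstream part is shown as the most CpG-rich of the promoters printed here, with 41 CpG in 250 bases, beside 8 for Kcnk13, 14 for Kcnj2, 3 for the first and 7 for the second window of Kcnj16; it has no GAGGAA or TTCCTC.
Kcng3, chr17:83631896-83632145, minus strand: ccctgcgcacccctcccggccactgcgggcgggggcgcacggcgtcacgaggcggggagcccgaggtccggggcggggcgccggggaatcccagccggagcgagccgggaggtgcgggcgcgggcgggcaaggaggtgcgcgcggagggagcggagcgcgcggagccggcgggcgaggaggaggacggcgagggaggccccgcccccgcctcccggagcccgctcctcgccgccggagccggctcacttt

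Further gains of H3K4me3 among the 6 largest outside the microglial and glial lists were at Kcnma1 (1.98 ± 0.0679 kb in FGR, 0.541 ± 0.458 kb in Ctrl), at Kcna7, a voltage-gated channel of muscle, in a window shared with Ntf5 (1.66 ± 0.0452 kb in FGR, 0.251 ± 0.192 kb in Ctrl), and at Kcnh6, an ERG-type channel, in windows shared with Ace3 and Dcaf7 (2.33 ± 0.124 kb in FGR, 1.02 ± 0.267 kb in Ctrl). At Kcnk13 the ends held 1.14, 1.18, 1.17 and 1.15 kb in FGR, against 0.48, 0.80, 1 and 1 kb in Ctrl, a gain within the window of 0.34 ± 0.118 kb (adjusted p = 0.0203). In FGR the peak block reaches the edge of the window, so this measure cuts off the size of the gain. The values over the whole gene are given above. Within channel genes and 2.5 kb of them, 41 H3K4me3 regions in 31 genes were called in every FGR and in no Ctrl library, of 13979 such regions in all. None was called in every Ctrl library only, of 12 in all. For H3K9ac there were 55 FGR-only regions in 34 channel genes (of 9509) and 12 Ctrl-only regions in 7 (of 5070); the 7 were Kcnma1, Kcnk13, Kcnj16, Kcnh7, Kcnq3, Kcnc2 and Kcnh6.

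H3K27ac was found at few channel genes. Of 86, 65 had no H3K27ac peak at an end in any library, among them 21 of the 25 neuronal genes and all 8 of the genes known from other tissues. Of the 15 tested none gained and 9 lost H3K27ac, beside 0.185% and 81.6% of all 11876 genes tested; the median difference was -0.57 kb over the 15 and -0.71 kb over all genes. Besides Kcnk6, Kcna3, Kcnj2 and Kcnj10, these were Kcnd1, Kcnh4, Kcnh6, Kcnn1 and Kcnk12. After quantile normalization 2 lost, Kcnd1 and Kcnh4, and 2 gained, Kcnk13 and Kcnn4 (12.5% of all genes gained and 11.3% lost). With lists of equal length 11 of 14 lost and none gained, beside 10137 losing and 6 gaining among all 11619 genes tested. Kcnk13 itself had 0.65, 0.74, 0.88 and 0.85 kb in FGR, against 0.99, 1.01, 0.99 and 1.03 kb in Ctrl; the groups did not overlap, but the loss of 0.22 kb (FGR minus Ctrl -0.22 ± 0.0949 kb) missed the threshold (adjusted p = 0.0505). The loss at Kcnk13 passed the threshold with lists of equal length (-0.308 kb, adjusted p = 0.0356).

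Kcnd1 had the largest H3K27ac loss, at 1.31, 0.87, 1.24 and 0.46 kb in FGR, against 3.30, 2.68, 2.95 and 4.06 kb in Ctrl (difference -2.28 ± 0.293 kb, adjusted p = 9.28e-05), in windows it shares with Gripap1 and Otud5. Kcnh4, a voltage-gated channel whose window also holds ends of Hcrt and Rab5c, had 0.479 ± 0.186 kb in FGR and 1.89 ± 0.385 kb in Ctrl (adjusted p = 0.000117). Kcnk12 had 1.01 ± 0.149 kb in FGR and 1.58 ± 0.241 kb in Ctrl (adjusted p = 0.00405). After quantile normalization the H3K27ac difference at Kcnk12 turned to 0.181 kb (adjusted p = 0.329) and its H3K4me3 gain no longer passed the test (0.506 kb, adjusted p = 0.134). The losses at Kcnh6 (1.46 ± 0.257 kb in FGR, 2.68 ± 0.0705 kb in Ctrl) and Kcnn1 (0.376 ± 0.126 kb in FGR, 1.28 ± 0.263 kb in Ctrl) were in shared windows. At Kcnn1 1 region of 420 bp, at chr8:70854094-70854513, was called for H3K27ac in every FGR library and in no Ctrl library, the only such region in a channel gene.

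The genes upstream and downstream of potassium efflux in microglia lost H3K9ac, as did Kcnk6 and the body of Kcnk13. Of 7 such genes, 6 fell in H3K9ac, all 7 fell in H3K27ac and 6 of 6 tested rose in H3K4me3. Over all genes tested 30% lost H3K9ac, 81.6% lost H3K27ac and 95.5% gained H3K4me3, so the H3K27ac and H3K4me3 counts are near the background. The H3K9ac loss was not particular to these 7 genes. Of the 8 microglial marker genes, P2ry12 among them, 6 lost and 2 gained H3K9ac. Their median H3K9ac difference was -2.788 kb, against -1.895 kb over the 7. Summed over the 7 genes, H3K4me3 covered 22.65 to 23.89 kb in FGR and 8.10 to 9.54 kb in Ctrl, and H3K9ac 6.66 to 9.10 kb in FGR and 22.61 to 25.61 kb in Ctrl, so FGR H3K4me3 was close to Ctrl H3K9ac here too. P2ry12, the ATP and ADP receptor that opens the Kcnk13 channel, had H3K9ac of 1.69, 1.28, 1.82 and 1.5 kb in FGR, against 7.38, 6.78, 7.21 and 7.1 kb in Ctrl (adjusted p = 3.32e-07). Nlrp3, the inflammasome sensor, had 1.19 ± 0.383 kb in FGR and 4.06 ± 0.136 kb in Ctrl (adjusted p = 8.95e-06), and Casp1, the protease that matures interleukin 1 beta, had 0.172 ± 0.198 kb in FGR and 3.40 ± 0.0558 kb in Ctrl (adjusted p = 6.49e-07). For P2rx7, the ATP-gated cation channel, the H3K9ac values were 1.53 to 2.34 kb in FGR and 2.16 to 2.75 kb in Ctrl (adjusted p = 0.0905). H3K4me3 at P2ry12 was 7.99 ± 0.165 kb in FGR and 2.49 ± 0.344 kb in Ctrl. In H3K27ac, Pycard, the adaptor of the inflammasome, had 1.07 ± 0.367 kb in FGR and 4.05 ± 0.257 kb in Ctrl (adjusted p = 3.39e-06).

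Partner proteins of the channels, which steer or tune them, gained H3K9ac where they passed the test. Of 16 listed, 12 were tested for H3K9ac, and 6 gained and none lost; the 3 largest were Lrrc26, a BK channel subunit (1.98 ± 0.711 kb in FGR, 0 kb in every Ctrl library), Kcnab2 (2.53 ± 0.565 kb in FGR, 0.674 ± 0.144 kb in Ctrl) and Kcnip3 (3.55 ± 0.321 kb in FGR, 1.71 ± 0.55 kb in Ctrl). For H3K4me3 6 of 7 gained, with Kcnab3, a subunit of Kcna channels, at 2.98 ± 0.161 kb in FGR and 0.258 ± 0.312 kb in Ctrl. For H3K27ac 3 of 4 lost coverage, with Kcnab3 at 1.63 ± 0.24 kb in FGR and 4.07 ± 0.241 kb in Ctrl. Over all genes tested 28.5% gained H3K9ac, 95.5% gained H3K4me3 and 81.6% lost H3K27ac, and the partners' H3K4me3 and H3K27ac counts are near these shares. For H3K9ac 9 of the 16 partners were at 0 kb in every Ctrl library, so those tested among them could only gain. Whether the partner list differs from the channel genes or from the efflux list was not tested.

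H3K9me3 over the bodies of channel genes could not be compared on one scale. Replicates 1 to 3 were deposited as broad peaks. The FGR lists, with 15522 to 22903 peaks, end at a −log10 q of 1.01 to 1.05, while the Ctrl lists, with 345501 to 492938 peaks, reach down to a −log10 p of 1 and a −log10 q of 0. As deposited, 34 of 51 channel genes tested were covered less and none more in FGR, beside 62.7% less and 0.12% more among all 12489 genes. In these lists 57 channel genes had no FGR peak, so those tested among them could only be covered less. How many of the 51 and of the 34 were of this kind was not counted. With only peaks of −log10 q of 1.3 or more, 14008 to 16506 peaks stayed in each FGR list, with 17 to 20 channel genes carrying one, and 70 to 78 in each Ctrl list, with no channel gene. At this common threshold 8 of 19 channel genes tested were covered more and none less (40% and 0.211% of all 1894 genes tested). As no channel gene had a Ctrl peak there, none could be covered less. These counts therefore do not decide a direction. After quantile normalization 10 gained and 4 lost (14.6% and 11.5% of all genes). That step gave 2.59% to genes without a peak in any FGR list. Kcnj10 and Kcna2 were such genes and are counted among the 10, so these are not gains of a called peak.

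**Figure D5:**
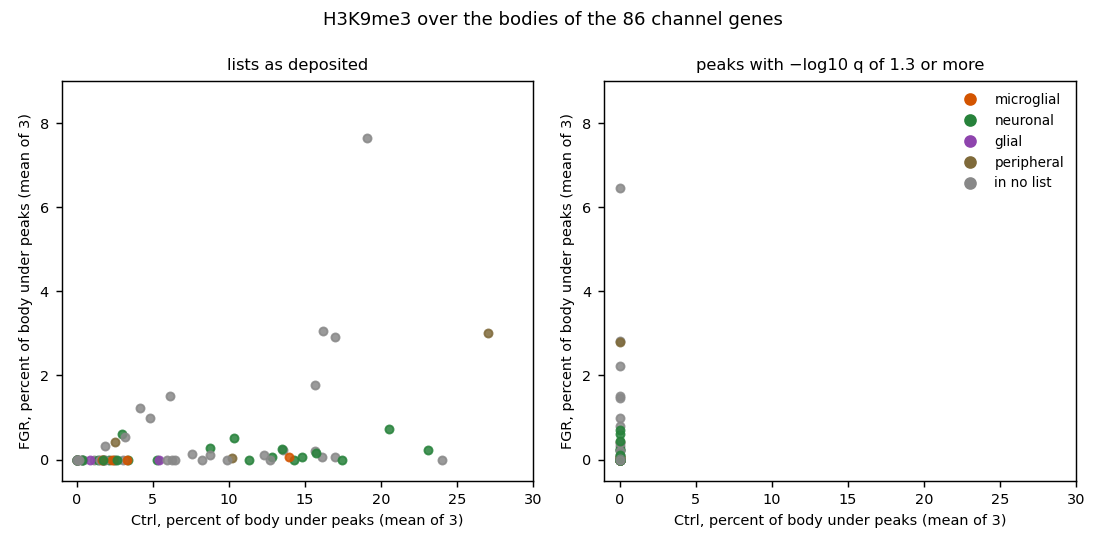
Percent of each channel gene's body under H3K9me3 peaks, mean of 3 libraries, FGR on the vertical and Ctrl on the horizontal axis, for the 86 genes. In the lists as deposited the points spread along the Ctrl axis, up to 27% at Kcnu1; with peaks of −log10 q of 1.3 or more Kcnk12 is highest in FGR at 6.46% and every gene is at 0 in Ctrl.

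Kcnu1, the potassium channel of sperm, had 2.88%, 2.2% and 3.94% of its body under H3K9me3 in FGR, against 31.42%, 28.48% and 21.09% in Ctrl, the widest in Ctrl as deposited (adjusted p = 0.00252). At the common threshold it kept 2.88%, 2.2% and 3.32% in FGR and 0% in Ctrl (adjusted p = 0.00328). Kcnk12 had 3.52%, 8.66% and 10.8% in FGR, against 22.26%, 17.82% and 17.05% in Ctrl, as deposited, and 3.52%, 8.66% and 7.19% in FGR, against 0% in Ctrl, at the common threshold. It was the channel gene with the most H3K9me3 in FGR while also having the largest gain of H3K4me3 at its ends. Kcnk13 had 0%, 0% and 0.20% in FGR, against 17.48%, 13.36% and 11.01% in Ctrl, as deposited (adjusted p = 0.00303). At the common threshold its FGR values stayed at 0%, 0% and 0.20%, with 0% in Ctrl. Other genes with large differences as deposited were Kcnh8 (0% in FGR, 24.0% in Ctrl), Kcnc2 (0.232% and 23.1%), Kcnn2 (0.718% and 20.5%), Kcnk9 (0% and 17.4%) and Kcnb2 (0.0546% and 17.0%), all averages of 3. Of the microglial genes Kcna3 had no H3K9me3 peak in its body in any library, and Kcnk6, Kcnn4 and Kcnj2 had none in FGR. The 2 glial genes passed no test, with Kcnj16 at 0% in FGR and 5.37 ± 3.66% in Ctrl (adjusted p = 0.0578). Among the partner and efflux genes, Dpp10, a partner of Kcnd channels, had 0.0736% in FGR and 22.7% in Ctrl, and P2ry12 0% and 8.09%, as deposited.

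RefSeq promoter sequences, 250 bases before to 50 after a start, were at hand for 62 channel genes in 78 windows. GAGGAA or TTCCTC was found in 23 of the 78 windows (29.5%) and in 28.3% of all 32851 windows of that length. The letters TTCAGCACC or GGTGCTGAA, part of the site of REST, a repressor of neuronal genes, were found in 1 window (1.28%) and in 0.371% of all; such matches describe letters only. The observed to expected ratio of CpG had a median of 0.44 over the channel windows and 0.38 over all. By H3K4me3, 4 windows carried a peak in every FGR and every Ctrl library, 9 in every FGR and no Ctrl library, and 50 in none; the 9 had a median CpG ratio of 0.52 and the 50 of 0.37. For H3K9ac 6 windows carried a peak in every FGR and no Ctrl library, and 1, the second window of Kcnj16, in every Ctrl and no FGR library. Sets this small and split by calls are given as a description only.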

How the data were processed

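The deposited files are 32 peak lists, 1 per library: 26 narrow lists and 6 broad lists (H3K9me3 replicates 1 to 3), without read counts. The submitters' processing notes name the build mm10, the peak caller MACS2 2.2.7.1, DiffBind 3.12.0, the aligner Bowtie2 2.4.5, Trim Galore 0.6.5 and SAMtools 1.3.1, but not their roles, the calling options or the control used. For each peak the authors deposited a position, a whole-number score, a fold enrichment, a −log10 p and a −log10 q; the fold, −log10 p, −log10 q and score are the authors' values, and the −log10 q was used to filter peaks and the −log10 p to describe the lists.

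Covered bases were summed per library in the union of windows of 2.5 kb around both ends of each RefSeq gene (GRCm38.p6), and for H3K9me3 as percent of the gene body. FGR and Ctrl were compared with limma 3.58.1 (R 4.3.3) for each mark over all genes with a peak in at least 2 libraries, and p-values were adjusted by Benjamini-Hochberg over all genes tested, with 0.05 as the threshold. H3K9me3 tests used replicates 1 to 3; replicate 4, a narrow list, is given as values only. The fit was tested on simulated data. Named genes are all microglial and glial genes, up to 6 further genes with the largest gain and up to 6 with the largest loss among those past the threshold without overlap between groups, and up to 3 partner and efflux genes each. The channel genes and lists were chosen with earlier results of these data known. Summing over whole genes and flanks, with and without quantile normalization, was added after the data were seen. Alternatives were quantile normalization, lists of equal length, stricter thresholds, a peak in at least 1 library, a 1 kb window, the 5′ end alone, a replicate block and leaving out each library. Input libraries were not used. A few genes that the naming rule gives are not reported here.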

Additional observations from a re-analysis of the deposited data

Results flagged for a closer look

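In groups of 4 libraries, 76 groups of named genes were checked for a library far from the other 3, and 4 stood out, where chance flags about 1 in 20. H3K4me3 at the ends of Kcnj10 was 1.64 kb in FGR replicate 3, against 1.48 to 1.5 kb in the other FGR libraries. H3K4me3 at Kcnd1 was 0.43 kb in Ctrl replicate 4 and 0.00 kb in the other Ctrl libraries. H3K9ac at Kcnk4 was 2.78 kb in FGR replicate 3, against 1.80 to 1.89 kb in the others. H3K27ac at Kcnn4 was 1.69 kb in Ctrl replicate 2, against 1.25 to 1.29 kb in the others.

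Replicate 4 of H3K9me3, deposited as narrow peaks and used in no test, had a peak in the body of 15 channel genes in FGR and of 0 in Ctrl. The FGR list held 11204 peaks and the Ctrl list 257. The highest coverage of a gene body in FGR was 2.39% at Kcnk18, 2.18% at Kcnu1 and 2.03% at Kcnk12.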

How the results depend on the processing

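Counts are channel genes covered more or less in FGR. After quantile normalization H3K4me3 had 5 more and 12 less, H3K9ac 4 less, H3K27ac 2 more and 2 less, and H3K9me3 10 more and 4 less; over whole genes H3K4me3 had 12 more and 5 less and H3K27ac 3 more and 3 less. With lists of equal length H3K4me3 had 13 more and 4 less and H3K9me3 1 more and 0 less. At the common threshold, with no Ctrl peak in any channel gene, H3K9me3 had 8 more and 0 less. In windows at gene ends it had 8 less. With the 5′ end alone H3K4me3 had 24 more and H3K9ac 1 less, with the 1 kb window H3K27ac had 5 less, and over whole genes H3K9ac had 5 less and H3K27ac 17 less. The cause was not tested, apart from the smaller number of genes tested with fewer peaks.

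Leaving out 1 library gave 35 to 38 more and 0 less for H3K4me3, 27 to 35 more and 2 to 3 less for H3K9ac, 0 more and 9 to 10 less for H3K27ac, and 0 more and 26 to 39 less for H3K9me3. Over whole genes it gave 45 to 47 more and 0 less for H3K4me3, 38 to 46 more and 4 to 6 less for H3K9ac, and 0 more and 15 to 17 less for H3K27ac.

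Signs that turned after quantile normalization were, for H3K4me3 in kb, Kcnk13 (-0.606), Kcna3 (-0.204), Kcnn4 (-0.223), Kcnj2 (-0.771) and Kcnj10 (-0.367), and over whole genes Kcnk13 (-1.81), Kcna3 (-1.12), Kcnj2 (-2.1) and Kcnk12 (-0.189). For H3K27ac they were Kcnk13 (0.404), Kcnn4 (0.609), Kcnj10 (0.0531) and Kcnk12 (0.181), and over whole genes Kcnk13 (2.56), Kcnk6 (1.47), Kcnn4 (1.1), Kcnj10 (0.348), Kcnj16 (0.791) and Kcnma1 (0.279). For H3K9me3 in percent they were Kcnk6 (1.38), Kcnn4 (0.854), Kcnj10 (2.07), Kcnj16 (0.103), Kcnu1 (15.8), Kcnn2 (3.77) and Kcnb2 (0.272). Kcnk6, Kcnn4, Kcnj10 and Kcnj16 had no H3K9me3 peak in any FGR list and were given 2.59% by quantile normalization. H3K4me3 at the ends of Kcnn4 was at 0 kb in every Ctrl library and was given 0.326 kb. With lists of equal length H3K4me3 turned at Kcng3 (-0.213) and Kcna7 (-0.251) and H3K9me3 at Kcnu1 (1.61) and Kcnn2 (0.678). At the common threshold, with no Ctrl peak in any channel gene, H3K9me3 turned at Kcnu1 (2.8), Kcnc2 (0.232), Kcnn2 (0.693) and Kcnb2 (0.0327). The near-zero H3K9ac difference at the ends of Kcnk13 ranged from -0.0313 to 0.07 when 1 library was left out (-0.00175 without FGR replicate 3, and -0.0197, -0.0313 and -0.006 without Ctrl replicates 1, 2 and 4), and was -9.15 over the whole gene; H3K9ac at Kcnj10 was 0.04 with the 5′ end alone.

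With the replicate block, 38 genes gained H3K4me3, 28 gained and 2 lost H3K9ac, 9 lost H3K27ac and 27 lost H3K9me3. Deviations of libraries with the same number correlated at -0.021 to 0.034, so no pairing by number was seen in coverage. Such values cannot tell whether libraries with the same number share an animal, pool or day. Depth is unknown from these lists, so how far it limits a missing peak cannot be given.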
